A study of Mus musculus with 6 samples.

Results

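Apoptosis is run by the BCL2 family at the mitochondrion, the caspases that take the cell apart, and the proteins that hold each of them back. Of 42 genes of this machinery listed by name (relatives of Bcl2, caspases, their adaptors, their inhibitors and the p53 axis), 40 had a probe set of their own and were read, among 19926 genes in all. Bax and Trp53 were not analysed here. For genes read by several probe sets, the brightest on average was taken. The members were set by role into 10 pro-survival genes, 25 pro-death genes, 23 of them measured, and 7 whose role does not fall on a single side.

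The RNA came from astrocytes, glial cells that feed and support neurons, taken from C57BL/6J mice and kept in primary culture. The control group held 3 samples, and the TNF group held 3 samples given tumour necrosis factor, an inflammatory cytokine, at 50 ng/mL. Both were labelled 24 h after treatment, and what the control cultures received was not given in the sources used here. Each sample was hybridised to 1 Affymetrix Mouse Gene 1.0 ST array. Nothing in the labels states whether the 3 samples of a group came from different cultures or animals, so the p-values rest on a spread that may be technical. Values are log2 signals. Differences are TNF minus control on that scale, "called" means an adjusted p under 0.05 with limma over all 19926 genes, and ± is the SD of 3 arrays.

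In the textbook scheme, BCL2-like proteins keep the pore formers BAX and BAK in check, and BH3-only proteins release them. The pores let out factors that start caspase-9 on the APAF1 platform. A second entrance starts at the cell surface. TNF receptors and Fas recruit FADD and caspase-8, whose activation is limited by c-FLIP (Cflar) and by the ubiquitin ligases cIAP1 and cIAP2 (Birc2 and Birc3), while the protein BID, once cut by caspase-8, carries the signal to the mitochondrion. TNF usually does not kill astrocytes, since NF-kB, which it activates, switches on survival genes.

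Nfkbia, the NF-kB inhibitor that NF-kB itself induces, rose from 8.97 ± 0.16 to 12.32 ± 0.06, a difference of 3.35 (limma adjusted p = 2.03e-05) that matches the labels of the TNF arrays. The 10 astrocyte markers had a mean signal of 11.02 to 11.32 on the control arrays and of 10.64 to 10.91 on the TNF arrays. Without the replicate block described below, 3 of 10 (30.0%) were called lower and none higher, against 3.33% and 3.87% of all genes. The 3 were Glul at -0.88, Gja1 at -1.0 and Aldoc at -1.01. With the block 6 were lower and 2 higher, against 11.8% and 9.73% of all genes. The 2 higher were Aqp4 and Slc1a2, both at 0.6. The 10 microglia markers had a mean signal of 6.41 to 7.52 on the control arrays and of 6.49 to 7.64 on the TNF arrays. By limma 0 of 10 were called, and 1 of 10 had an unadjusted p under 0.05. Cx3cr1, Aif1, P2ry12 and Tmem119 differed by -0.11, 0.07, -0.05 and 0.03. Ptprc, Tyrobp, Csf1r, Itgam, Fcer1g and Cd68 differed by 0.09, 0.12, 0.27, 0.47, 0.52 and 0.57. Of the 10 differences 8 were positive and 2 negative. With the block 2 of the 10, Itgam and Cd68, were called higher. Fcer1g ran from 6.68 to 9.04 across the controls and from 6.53 to 9.53 across the TNF arrays, lowest in replicate 2 of each group. Among neuron, endothelial and fibroblast or mural markers, 1 of 8, 1 of 5 and 1 of 7 were called, each lower (2, 1 and 2 with the block, all lower), and among oligodendrocyte and ependymal markers 0 of 7 and 0 of 4, with 0 and 1 at an unadjusted p under 0.05 and 0 and 1 lower with the block. Those called lower without the block in these lists were Map2 at -1.22, Kdr at -0.91 and Acta2 at -0.96. Some markers of these lists were bright in controls, such as Acta2 at 13.37, Stmn2 at 12.09 and Cnp at 10.9. Others were dim, such as Dcx at 5.5 and Lum at 4.05. In a bulk sample, fewer cells of a type and less RNA per cell cannot be told apart. The part of these markers in the results below was not tested.

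Of 40 members 5 rose and 1 fell, and 34 were not called. The risers were Bid, Birc2, Casp12, Bak1 and Cflar, and the member that fell was Bcl2. The share that rose was 12.5%, against 3.87% of all genes tested, and the share that fell was 2.50%, against 3.33%. Among all genes 7.20% were called in either direction. The median difference of the members was 0.064, against -0.003 for all genes, and the members' differences ran from -0.74 to 2.08. The control and TNF arrays did not overlap in 13 members, 12 of them higher with TNF and 1 lower. That is 32.5% of members, against 24.0% of all genes, of which 12.3% were higher and 11.7% lower. The members were chosen with earlier results of these data known, so these shares are not independent evidence.

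Both camps held risers. Among the 10 pro-survival genes 2 rose and 1 fell, with a median difference of 0.043, and among the 23 measured pro-death genes 2 rose and none fell, with a median of 0.065. Those medians lie close to each other and to the median of all genes, but the pro-survival genes moved in both directions. The median absolute difference was 0.34 for the pro-survival genes, 0.11 for the pro-death genes and 0.13 for all genes. The fifth riser, Casp12, was assigned to neither side. Samples of the same replicate number varied together, and with that number as a block in the fit 8 members were called higher and 3 lower, against 9.73% higher and 11.8% lower among all genes, 21.5% together. The added calls were Casp8, Fadd and Mdm2 among the higher and Mcl1 and Xiap among the lower, so that by side the block gave 3 higher and 3 lower pro-survival genes and 4 higher and 0 lower pro-death genes. Of the pro-death genes 5 of 23 (21.7%) had an unadjusted p under 0.05 without the block, close to the 18.9% of all genes. Of the pro-survival genes 4 of 10 (40.0%) did.

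**Figure D1:**
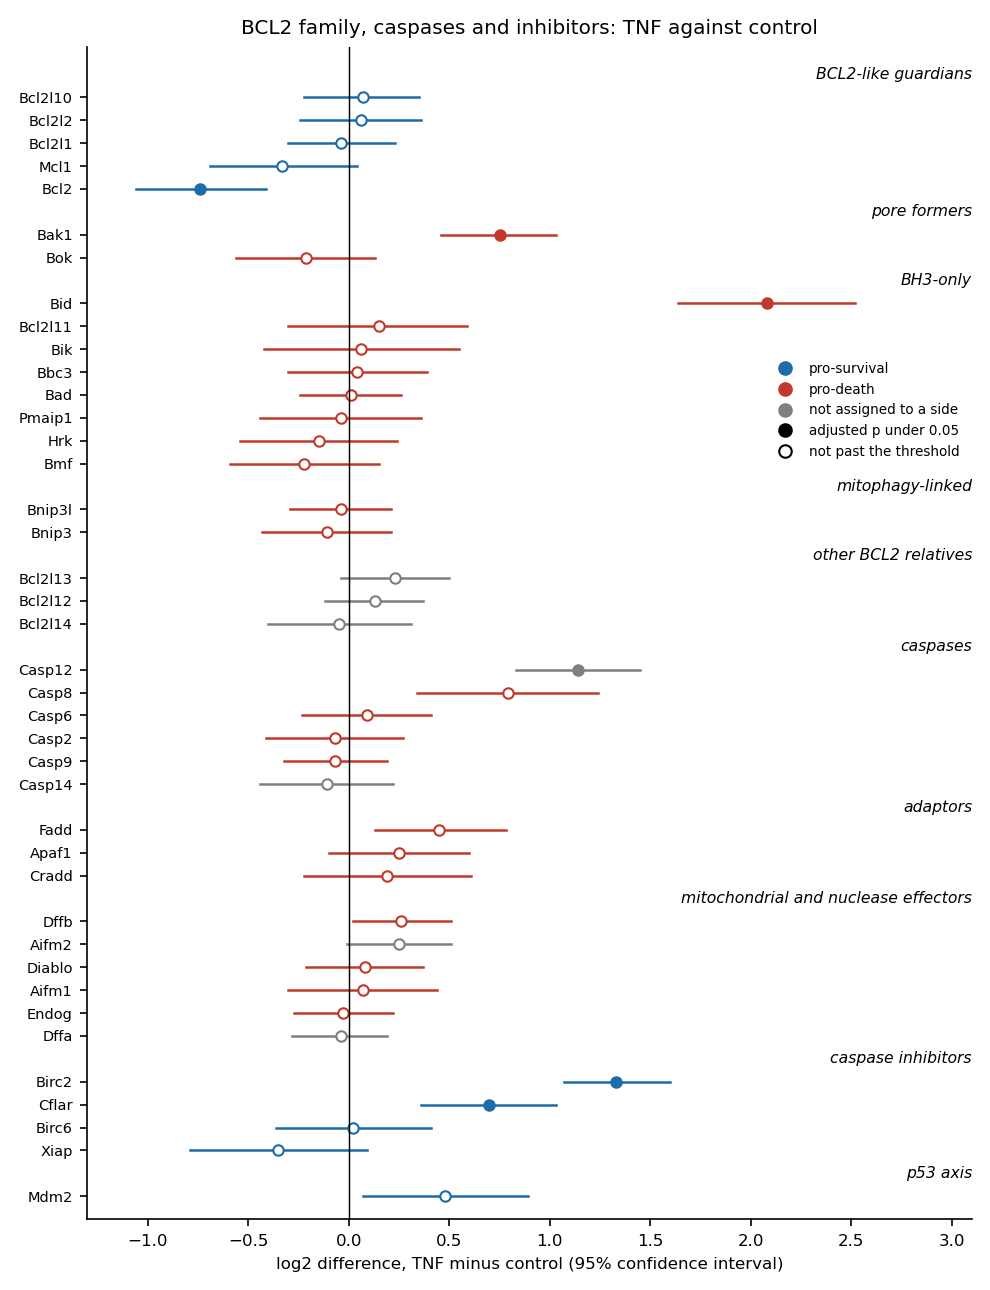
Log2 difference, TNF minus control, for the 40 measured members (points, with 95% confidence intervals from limma), sorted by role on the vertical axis and coloured by side. Filled points passed an adjusted p of 0.05: Bid at 2.08, Birc2 at 1.33, Casp12 at 1.14, Bak1 at 0.75 and Cflar at 0.70 lie to the right of 0, and Bcl2 at -0.74 lies to the left.

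The BCL2-like guardians bind and restrain the pore formers and BH3-only proteins. Bcl2, the founding member, read 11.36, 11.21 and 11.28 on the control arrays and 10.66, 10.71 and 10.27 on the TNF arrays. The highest TNF array lay below the lowest control array, and TNF replicate 3 was the lowest of all. Bcl2 fell by 0.74 on the log2 scale (SE 0.14, 1.67-fold lower, limma adjusted p = 0.0202), in 3 of 3 pairs. The call was lost without control 1 (adjusted p = 0.0873), control 2 (0.0543) or control 3 (0.068), and when all probe sets of the array were tested together (0.0514).

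Mcl1, a short-lived guardian that cells must keep making, read 10.61, 10.94 and 10.56 in controls and 10.33, 10.62 and 10.19 with TNF. The groups overlapped, since replicate 2 was the brightest in each, but the TNF array was lower in every pair, by 0.29, 0.33 and 0.37. The difference of -0.33 was not called without the block (adjusted p = 0.336) and was called with it (adjusted p = 0.0222). Bcl2l1, which encodes BCL-xL, differed by -0.04 (95% confidence interval -0.30 to 0.23). Bcl2l2, which encodes BCL-w, differed by 0.06 (-0.24 to 0.36), and Bcl2l10 by 0.07 (-0.22 to 0.35). For these 3 guardians, intervals ended well short of the difference of Bcl2. Bcl2l10 was dim, at 5.17 ± 0.03 in controls, so a fall of that gene may not have shown. Of the 5 guardians, 1 fell and none rose, and 2 were lower with the block.

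The pore formers open the outer mitochondrial membrane. Bak1 read 9.55, 9.61 and 9.74 in controls and 10.20, 10.45 and 10.49 with TNF. Every TNF array was above every control array. It rose by 0.75 (SE 0.12, 1.68-fold, limma adjusted p = 0.011). The adjusted p was 0.0541 without control 1 and at most 0.0497 without any other single array. Bok, a relative that can form pores by itself, differed by -0.21 (95% confidence interval -0.56 to 0.13).

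The BH3-only group gave the largest single change among the members. Bid read 8.07, 8.39 and 8.49 in controls and 10.02, 10.62 and 10.54 with TNF. The groups were more than 1 log2 unit apart, and replicate 1 was the lowest in both. Bid rose 4.22-fold, by 2.08 on the log2 scale (SE 0.19, limma adjusted p = 0.000654), with pair differences of 1.95, 2.23 and 2.05. It was called without any single array, with adjusted p from 0.000632 to 0.00474.

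None of the other 7 BH3-only genes was called, with or without the block, and 0 of them had an unadjusted p under 0.05. Bcl2l11, which encodes BIM, differed by 0.15 (95% confidence interval -0.30 to 0.59), and Bbc3 and Pmaip1, the p53 targets known as PUMA and NOXA, differed by 0.04 (-0.30 to 0.39) and -0.04 (-0.44 to 0.36). Bad, which growth factor signals hold inactive, differed by 0.01 (-0.24 to 0.26). Bik, Hrk and Bmf differed by 0.06, -0.15 and -0.22, and the widest of their intervals ran from -0.42 to 0.55, for Bik. No interval of these 7 genes reached the lower bound of Bid, 1.64.

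Bnip3 and Bnip3l, BH3-like proteins best known for the removal of mitochondria, differed by -0.11 and -0.04 and were not called. Each had a second probe set, at -0.03 and -0.05, that was not called either. The remaining BCL2 relatives were not called. Bcl2l13, a mitophagy receptor, was higher on every TNF array than on any control array, by 0.23 (adjusted p = 0.364), and so was Bcl2l12, by 0.13 (adjusted p = 0.677). Bcl2l14 differed by -0.05.

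**Figure D2:**
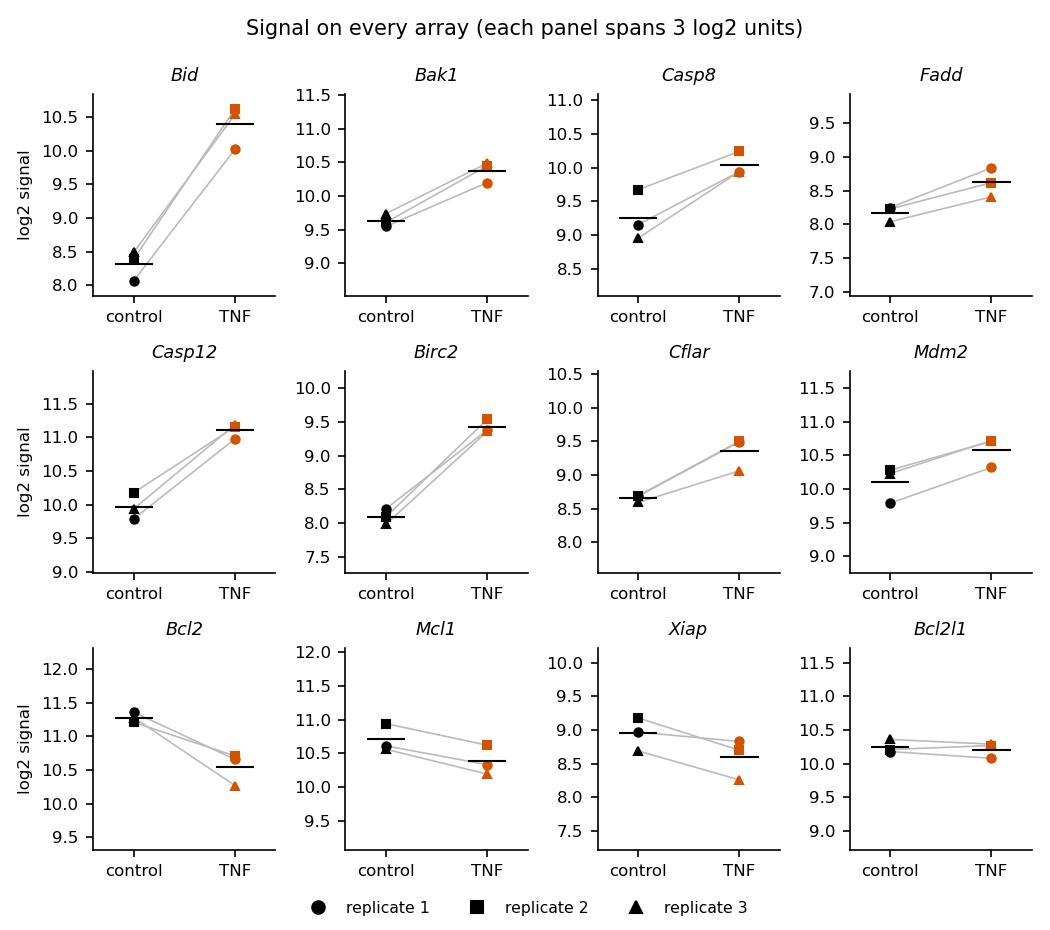
Log2 signal (vertical axis) on each of the 6 arrays for 12 members, with control arrays in black and TNF arrays in orange, grey lines joining arrays of the same replicate number, and short bars at the group means. Bid, Bak1, Casp8, Fadd, Casp12, Birc2, Cflar and Mdm2 have all 3 TNF arrays above all 3 control arrays, Bcl2 has all 3 below, and Mcl1, Xiap and Bcl2l1 overlap.

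Among the caspases, the proteases that carry out cell death or process cytokines, Casp12 rose. Casp12, a rodent caspase of the inflammatory branch that has been linked to stress of the endoplasmic reticulum, read 9.79, 10.18 and 9.94 in controls and 10.98, 11.16 and 11.19 with TNF. The groups did not overlap in any replicate. It rose 2.20-fold, by 1.14 (SE 0.13, limma adjusted p = 0.00249), and was called without any single array.

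Casp8, the initiator caspase of death receptors, read 9.15, 9.67 and 8.95 in controls and 9.94, 10.24 and 9.94 with TNF. The TNF arrays were all above the control arrays, but the controls spread widely and replicate 2 was the brightest in each group. The difference of 0.79 (SE 0.19) lay just outside the threshold without the block (limma adjusted p = 0.054) and was called with it (adjusted p = 0.00156). It was also called after centring each array on its median (0.0441) or quantile normalization of the genes tested (0.0334), and without control 2 (0.0179). A low-signal filter (0.0333), another variance model (0.0344), weighted arrays (0.0212) and the replicate number as a random effect (0.00101) gave the call too. It was not called without any of the other 5 single arrays (0.0839 to 0.178) or with all probe sets tested together (0.118). Nor was it called without both arrays of a replicate number (0.0616 to 0.322) or with the highest-variance probe set of each gene (0.0552).

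Casp9, the initiator at the mitochondrial platform, differed by -0.07 (95% confidence interval -0.32 to 0.19), and Casp2, which joins the PIDDosome complex, by -0.07 (-0.41 to 0.27). Casp6, an executioner that cuts nuclear lamins, differed by 0.09 (-0.23 to 0.41). Casp14, a caspase of skin differentiation, differed by -0.11 from a dim signal of 5.99 ± 0.14. Those 4 caspases overlapped between groups. Of the 6 caspases 1 rose and none fell.

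The adaptors connect receptors and caspases. Fadd, which brings caspase-8 to death receptors, read 8.25, 8.23 and 8.04 in controls and 8.84, 8.62 and 8.41 with TNF. The groups did not overlap, and the difference was 0.45 (limma adjusted p = 0.111, 0.00874 with the block). Apaf1, the scaffold that activates caspase-9, differed by 0.25 (adjusted p = 0.483), and Cradd, the adaptor of caspase-2, by 0.19 (adjusted p = 0.718). All 3 adaptors were higher with TNF in 3 of 3 pairs, yet none was called in the fit used throughout, which had no block. Without the block, Fadd was called only after quantile normalization of the genes tested (limma adjusted p = 0.0434) or with weighted arrays (0.038).

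The mitochondrial and nuclease effectors act late. None of 6 was called, and 1 had an unadjusted p under 0.05. Diablo, which frees caspases from their inhibitors, differed by 0.08, and the nuclease Endog and the flavoprotein Aifm1 by -0.03 and 0.07. Dffb, the caspase-activated DNase, read 6.98, 6.90 and 6.97 in controls and 7.12, 7.19 and 7.32 with TNF, and its inhibitor and chaperone Dffa differed by -0.04. The Dffb arrays did not overlap, but the difference of 0.26 was small (adjusted p = 0.23). Aifm2, known as FSP1 for its part in holding off ferroptosis, did not overlap either, at 0.25 (adjusted p = 0.295). With the replicate number as a random effect both were called (adjusted p = 0.029 for Dffb and 0.0336 for Aifm2).

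Of the 4 caspase inhibitors 2 rose and none fell, and 1 was lower with the block. Birc2, which encodes the ubiquitin ligase cIAP1 of the TNF receptor complex, read 8.21, 8.09 and 7.98 in controls and 9.38, 9.54 and 9.36 with TNF. The spread within each group was small beside the gap between them. It rose 2.52-fold, by 1.33 (SE 0.11, limma adjusted p = 0.000483), and was called without any single array.

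Cflar, which encodes c-FLIP, the caspase-8 relative that limits caspase-8, read 8.68, 8.69 and 8.59 in controls and 9.49, 9.50 and 9.06 with TNF. TNF replicate 3 was the lowest of the TNF arrays and still above all controls. It rose by 0.70 (SE 0.14, 1.62-fold, limma adjusted p = 0.0265). The call was lost without control 1 (adjusted p = 0.0892), control 2 (0.075), control 3 (0.093), TNF 1 (0.0896) or TNF 2 (0.102), and kept without TNF 3 (0.00677). Whether this probe set, the brightest of 3, reads Cflar alone or also a copy elsewhere in the genome was not tested.

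Xiap, the direct inhibitor of the executioner caspases, read 8.97, 9.18 and 8.69 in controls and 8.83, 8.70 and 8.26 with TNF, overlapping but lower in every pair. The difference of -0.35 was not called without the block (limma adjusted p = 0.403) and was called with it (adjusted p = 0.0371). Birc6, a very large ubiquitin-conjugating inhibitor of apoptosis, differed by 0.02 (95% confidence interval -0.36 to 0.41).

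Several of these genes were read by more than 1 probe set. The second probe set of Birc2 read 7.02, 7.08 and 6.97 in controls and 8.11, 7.62 and 7.68 with TNF, with a difference of 0.78 against 1.33 from the first. For Cflar the other probe sets gave differences of 0.48 and 0.52 against 0.70, and none of the 3 overlapped between groups. Adjusted over all 35544 probe sets of the array, both of Birc2 were called (limma adjusted p = 0.00199 and 0.0496) and none of Cflar was (0.0652, 0.282 and 0.31). With the block both of Birc2 were called (0.00492 and 0.0348), and of Cflar only the brightest was (0.0264, against 0.0815 and 0.0751). The Cflar call thus rests on that probe set. Where on the genome each probe set lies was not given in the tables used here, so that a copy elsewhere may contribute to those of Cflar, Bnip3 and Bnip3l, which was not tested. All probe sets of Birc2 and Cflar pointed up, and the sizes for these genes depend on which is read.

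**Figure D3:**
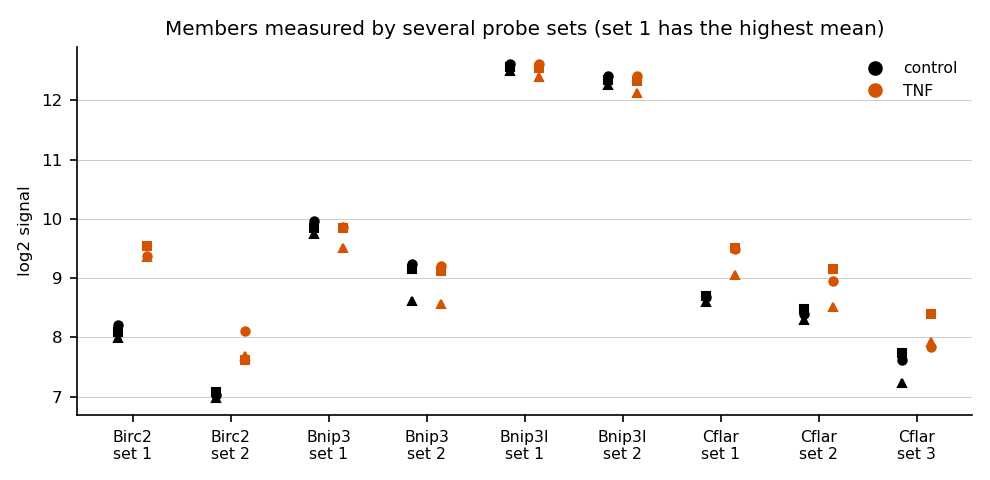
Log2 signal (vertical axis) on control arrays (black) and TNF arrays (orange) for every probe set of the 4 members with more than 1, circles, squares and triangles marking replicates 1, 2 and 3. Both sets of Birc2 and all 3 of Cflar have the TNF arrays above the control arrays, while those of Bnip3 and Bnip3l overlap.

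On the p53 axis, Mdm2, the ubiquitin ligase that destroys p53 and is itself a p53 target, read 9.79, 10.28 and 10.23 in controls and 10.32, 10.71 and 10.72 with TNF. Replicate 1 was low in each group, and the groups did not overlap. The difference of 0.48 was not called without the block (limma adjusted p = 0.18) and was called with it (adjusted p = 0.0047). Of 20 other p53 target genes listed from general knowledge, 18 were measured, 3 rose and 1 fell, with a median of 0.196. Among all genes 3.87% rose and 3.33% fell, with a median of -0.003. This list too was drawn up with earlier results of these data known, so its counts are not independent evidence. Trp53i11, a p53-inducible membrane protein gene, rose 2.55-fold (adjusted p = 0.00249), Gadd45a, a stress-response gene, by 0.82 (0.0359) and Btg2, an antiproliferative gene, by 0.59 (0.0445), while Sesn1, a sestrin that restrains growth signalling, fell by 0.61 (0.0108).

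Of these 4 calls, that of Trp53i11 held without any single array. Gadd45a, Btg2 and Sesn1 were called in 2, 1 and 5 of the 6 fits without a single array, with a highest adjusted p of 0.124 without TNF 2, 0.153 without TNF 2 and 0.0537 without control 1. Gadd45a was called only without control 2 or TNF 3 and Btg2 only without control 2. With the replicate block 8 target genes were higher and 2 lower, against 9.73% and 11.8% of all genes. Plk2, Phlda3, Eda2r and Ddit4 were not called without the block, at 0.85, 0.62, 0.49 and 0.35 (adjusted p from 0.0992 to 0.215), and were called with it. The block also added Aen at 0.33 (adjusted p = 0.312 without it, 0.0449 with it) and Perp, lower at -0.46 (0.585 and 0.00739), both named after their values were seen.

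Outside the members, the inflammatory caspases and Birc3 changed most among the other apoptosis genes. Of 34 other apoptosis genes listed from general knowledge 27 were measured, and 8 rose and 2 fell, with a median of 0.204, against 3.87% and 3.33% of all genes and their median of -0.003. Earlier results of these data were known when the list was drawn up, so its excess over all genes is not independent evidence. Casp4, the caspase-11 gene of pyroptosis, read 5.23, 5.23 and 5.46 in controls and 9.85, 10.07 and 9.92 with TNF, a measured rise of 25.0-fold (limma adjusted p = 6.29e-06). Birc3, which encodes cIAP2, rose 8.26-fold and Casp1, the caspase that matures interleukin-1 beta, 6.67-fold. The control signals of Casp4, and of Tnfsf10 below, were dim and were not tested against background, so the size of their folds is uncertain. For these 3 genes and for Traf2, Tnfsf10, Fas and Tnfrsf21 the call held without any single array.

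At the receptor level ligand and receptors moved unequally. Tnfsf10, the death ligand TRAIL, read 5.87, 5.43 and 5.80 in controls and 7.82, 8.83 and 7.72 with TNF, 5.37-fold higher (limma adjusted p = 0.00269), and TNF replicate 2 stood above the other TNF arrays. The receptor genes Fas and Tnfrsf10b rose by 1.02 (adjusted p = 0.0103) and 0.89 (0.0494), and Tnfrsf21, known as death receptor 6, fell by 1.27 (0.00992). Traf2, which carries cIAP proteins to the TNF receptor, rose 1.97-fold. Tradd, the adaptor of the TNF receptor, differed by 0.40 and Bcl10, a signalling adaptor towards NF-kB, by 0.37, and both were called with the block and not without it (adjusted p = 0.107 and 0.247 without it, 0.0106 and 0.016 with it). Tnfrsf1a, the main receptor of TNF, named after its values were seen, differed by 0.20 (adjusted p = 0.486). Tnfrsf10b was called in 1 of the 6 fits without a single array, that without control 2, with a highest adjusted p of 0.153 without TNF 2, and it was not called after median centring (0.0504) or quantile normalization (0.0518).

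At the mitochondrion, Htra2, a protease that counteracts caspase inhibitors, rose by 0.76 (limma adjusted p = 0.0142, 0.0606 without TNF 2). Septin4, whose ARTS isoform in humans binds XIAP, fell by 0.98 (adjusted p = 0.0334). Its call held in 1 of the 6 fits without a single array, that without control 1, with a highest adjusted p of 0.107 without control 3. Dedd, a death-effector-domain gene, and Lmnb1, a nuclear lamin cut by caspases, differed by 0.22 and -0.40 and were not called in either fit.

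**Figure D4:**
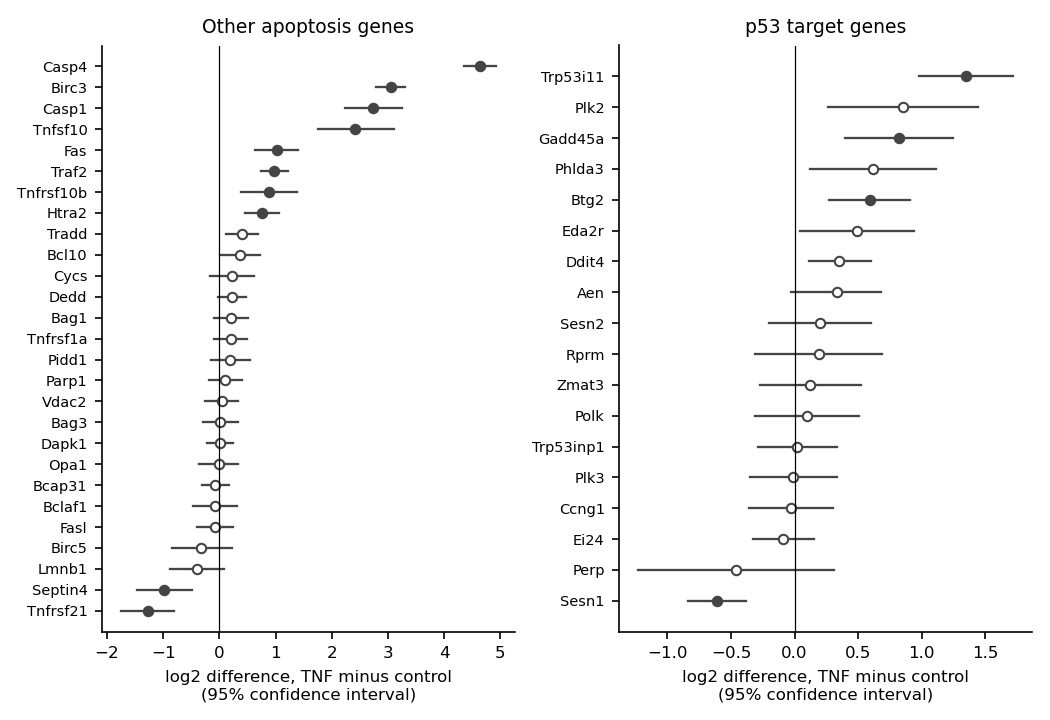
Log2 difference, TNF minus control, with 95% confidence intervals for the 27 measured other apoptosis genes and the 18 measured p53 target genes, sorted by size on the vertical axes. Filled points passed an adjusted p of 0.05, and the horizontal scales of the panels differ: Casp4 reaches 4.64 on the left, Trp53i11 1.35 on the right.

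Several of these genes sit beside each other on the chromosome, by the gene order of the RefSeq annotation of GRCm38.p6 (protein-coding genes only). Cflar and Casp8 are neighbours, and differed by 0.70 and 0.79, the second not called without the block. The other Cflar probe sets gave 0.48 and 0.52. Flacc1 and Ndufb3 on the far side of Cflar differed by 0.09 and 0.00. Birc2 lies next to Birc3, at 1.33 and 3.05, while Tmem123 and Mmp7 on its other side differed by 0.25 and 0.05. Casp12 lies next to Casp4 and then Casp1, at 1.14, 4.64 and 2.74, and Pdgfd on its other side differed by -0.61 (limma adjusted p = 0.219).

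Bcl2l13, which adjoins Bid, differed by 0.23 and Mical3 on the other side by -0.24, neither of them called. Beside Bcl2, Phlpp1, a phosphatase gene, fell by 0.58 (limma adjusted p = 0.0155) and Kdsr differed by -0.07. Caspase and inhibitor genes of these neighbourhoods are related copies of each other, and signal shared between such copies was not tested here.

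**Figure D5:**
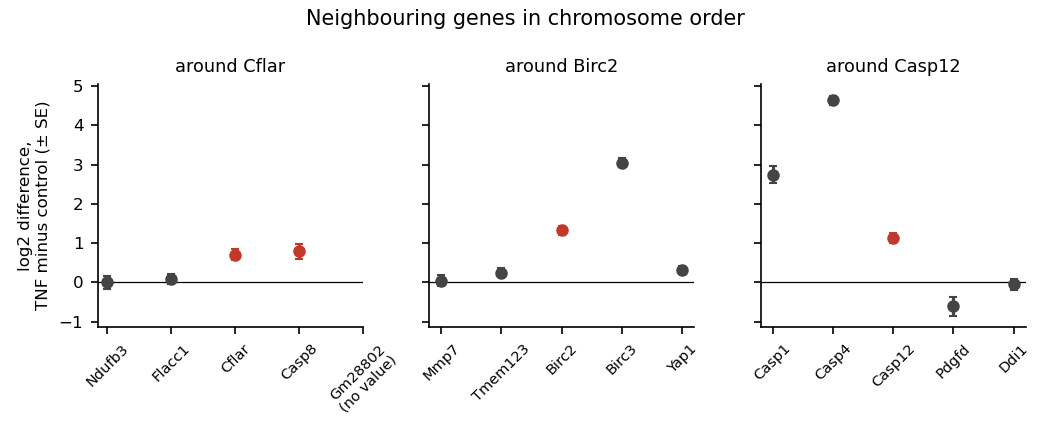
Log2 difference, TNF minus control, ± SE (vertical axis) for Cflar, Birc2 and Casp12 with up to 2 protein-coding neighbours on each side in chromosome order (horizontal axis), members in red. Casp8 at 0.79, Birc3 at 3.05, and Casp4 and Casp1 at 4.64 and 2.74 adjoin the members, and the genes beyond lie between -0.61 and 0.32.

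The members' promoters were read for the letters that NF-kB, interferon and STAT factors are known to bind. RefSeq promoter windows of GRCm38.p6, from 250 bases before to 50 after the start, were at hand for 36 of the 40 measured members and for all 11 called in either fit. The NF-kB motif was GGG, any 3 bases, then TTCC. The interferon motif was GAAA, any 2 bases, then GAAA, and the STAT motif was TTC, any 3 bases, then GAA. Both strands were searched, and matches could overlap. Of 32851 windows in the table, 5.56% held the first, 3.44% the second and 8.30% the third. The 3 windows below are those of Bid, the member that rose most, and of the risers that held a match, with matched letters in capitals.
Bid, chr6:120916775-120917074, minus strand: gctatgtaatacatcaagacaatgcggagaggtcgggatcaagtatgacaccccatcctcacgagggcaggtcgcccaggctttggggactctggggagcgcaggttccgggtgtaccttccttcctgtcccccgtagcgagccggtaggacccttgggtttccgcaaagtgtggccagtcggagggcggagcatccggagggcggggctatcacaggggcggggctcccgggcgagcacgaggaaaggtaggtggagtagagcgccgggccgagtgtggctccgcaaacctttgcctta
Casp12, chr9:5345226-5345525, plus strand: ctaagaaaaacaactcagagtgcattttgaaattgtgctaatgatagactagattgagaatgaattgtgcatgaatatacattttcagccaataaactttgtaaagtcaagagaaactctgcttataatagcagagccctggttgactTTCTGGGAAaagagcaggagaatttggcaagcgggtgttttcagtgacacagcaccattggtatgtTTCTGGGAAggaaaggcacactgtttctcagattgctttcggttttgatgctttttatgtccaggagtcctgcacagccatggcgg
Cflar, chr1:58711241-58711540, plus strand: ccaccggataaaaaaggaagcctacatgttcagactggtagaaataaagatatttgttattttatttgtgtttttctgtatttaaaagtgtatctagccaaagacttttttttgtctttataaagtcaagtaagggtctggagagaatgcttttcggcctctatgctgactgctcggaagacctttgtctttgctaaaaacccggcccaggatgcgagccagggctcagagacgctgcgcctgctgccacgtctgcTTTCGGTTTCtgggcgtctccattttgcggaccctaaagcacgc

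The Casp12 window held the STAT letters at 2 places, bases 149 to 157 and 215 to 223 counted from its 5′ end, both as TTCTGGGAA. The Cflar window held the interferon letters at bases 257 to 266. Bid, Birc2, Bak1, Casp8, Fadd and Mdm2 had no match to any of the 3 motifs in these windows, nor did Bcl2 or Xiap. The NF-kB letters stood in the windows of Mcl1, Bcl2l1 and Bbc3, none of which rose. No binding was measured here, and a match is a run of letters only.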

How the data were processed

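The authors deposited log2 signals for 35544 probe sets on 6 arrays. Per the submitters' processing notes they were made with RMA, which sets all arrays to one distribution and sums up the probes of a set; limma is named there too, without versions. RMA shrinks large folds and cannot go below a background level for dim genes, and no probe set was filtered on detection. The log base was read from the values (2.04 to 14.37). In the platform annotation 21777 probe sets had exactly 1 gene symbol, 1621 had several and 12146 had none. Those with 1 symbol gave 19926 genes at 1 probe set each, that of highest mean.

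Differences were tested with limma 3.58.1 in R 4.3.3 (lmFit, eBayes, two-sided, no block, Benjamini-Hochberg over all genes), with 4 residual degrees of freedom. Simulated arrays held no shared replicate effect, and fewer of their genes differed than were called in the data. Recovery in the data may thus be different. On the simulated arrays this fit recovered 8.8% of true differences of 0.5. It recovered 63.2% of those of 1, 62.4% of those of -1 and 93.6% of those of 2. A gene that was not called may therefore still differ. Tables and plots used Python 3.11.15, pandas 2.3.3, numpy 2.4.6 and matplotlib 3.10.9. Replicate numbers came from the titles. After subtracting each group's mean, same-numbered arrays correlated at 0.55, 0.65 and 0.75. They therefore varied together, though the labels do not say what they share, and "pairs" here are arrays of the same number. The fit with the block left 2 residual degrees of freedom. Its result is given where it changed a call of a member or a count of a list. The number of arrays limits the precision. All members, called genes and up to 4 more of each list were named. The members, lists and tests were chosen with earlier results of these data known. The alternatives were 2 other scalings, a low-signal filter, another variance model, weighted arrays, the block (fixed or random), other probe sets, stricter thresholds, and arrays left out singly or in pairs.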

Additional observations from a re-analysis of the deposited data

How the results depend on the processing

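With the replicate block 1938 genes were higher and 2351 lower, 8 and 3 of the members, and 8 and 2 of the p53 target genes. With the replicate number as a random effect these were 2231 and 2471 genes, 10 and 3 members, and 8 higher p53 targets. Testing all probe sets together left 369 lower genes, 0 lower members, 1 lower gene of the other apoptosis list and 1 higher p53 target. Array weights gave 5 higher p53 targets. At an adjusted p under 0.01 there were 386 higher and 195 lower genes, 3 and 0 members, 5 and 1 other apoptosis genes, and 1 and 0 p53 targets. With an absolute log2 difference of at least 1 as well as an adjusted p under 0.05, there were 365 and 200 genes, and the same counts as at 0.01 in the members and both lists. The cause of the differences between settings was not tested, except that leaving out arrays leaves fewer samples and testing all probe sets adjusts over more tests.

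Leaving out 1 array, or both of a replicate number, gave 273 to 669 higher and 106 to 455 lower genes, 3 to 5 higher and 0 to 1 lower members, 5 to 8 higher and 0 to 2 lower other apoptosis genes, and 1 to 4 higher and 0 to 1 lower p53 targets. The median difference ran from -0.042 to 0.076 for pro-survival and from 0.002 to 0.081 for pro-death members. Bid, Birc2 and Casp12 were called in every one of these fits and under every other scaling, filter and variance model. No called member and no called gene of the other apoptosis or p53 target lists changed sign under any setting, and 18 members not called, the largest at 0.15, did so in at least 1. The fold of a dim gene such as Casp14, Bcl2l10 or Casp4 is limited by its distance from background, which was not measured here.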
